A study of Mus musculus with 16 samples.

Results

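The small leucine-rich proteoglycan genes described here are Dcn, Bgn, Aspn, Lum, Fmod, Prelp, Ogn and Podn. They were chosen by symbol, and all 8 were found among the 23999 gene rows of the deposited count table. Their levels are given in all 16 libraries as CPM, counts relative to library size, with library sizes scaled by the trimmed mean of M-values (TMM).

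Small leucine-rich proteoglycans are secreted matrix proteins whose core is a curved stack of leucine-rich repeats, and most carry chondroitin, dermatan or keratan sulphate chains. They bind fibrillar collagens, set fibril spacing and thickness, and hold growth factors such as TGF-beta in the matrix. Fibroblasts and other mesenchymal cells make them, whereas the proteoglycan best known from blood cells is serglycin, which is stored in granules.

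RNA was sequenced from mice carrying NPM1cA, a mutant nucleophosmin of acute myeloid leukaemia, in every group. Myeloid sarcomas, which are solid tumours of leukaemia cells outside the marrow, came from 4 SMC3+/- mice (948, 1267, 1268_1270 and 2721), and whole bone marrow infiltrated with leukaemia came from 9 SMC3+/- mice. Mouse 841 gave 1 further sarcoma with NPM1cA and wild-type SMC3, the gene of a cohesin subunit. Mice 948 and 2721 each gave 2 sarcoma libraries, called tumour 1 and tumour 2 below, and mice 1267 and 2721 gave both tissues. The labels of these library pairs read Rep1 and Rep2 and do not say whether each came from a separate tumour or from 1 tumour. Reading them as separate tumours is an assumption. The label 1268_1270 may name 1 mouse or a pool of 2 and was counted as 1. Age, sex, strain, the promoter or Cre driver of the alleles and the site of each tumour are not stated in the labels, and no group without NPM1cA was analysed. Tumours went straight into Trizol while marrow was crushed, filtered and cleared of red cells first, so tissue and handling cannot be told apart. Total counts ran from 12395041 to 39197660 in marrow and from 12072482 to 33605464 in the SMC3+/- sarcoma libraries, and reached 9797201 in mouse 841.

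Several of the genes lie side by side in the mouse genome. In the order of protein-coding genes in RefSeq, Prelp and Fmod follow each other on chromosome 1 after Optc. Dcn, Lum, Kera and Epyc follow each other on chromosome 10, and Ecm2, Aspn, Omd and Ogn on chromosome 13. Podn lies on chromosome 4 and Bgn on chromosome X.

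Promoter windows are shown for the adjacent genes Prelp and Fmod, for Aspn and Ogn, which lie on either side of Omd, and for Bgn, because genes of 1 cluster could be compared letter by letter and Bgn varied least among the SMC3+/- sarcomas. Each window runs from 250 bases before to 50 bases after the annotated start in the RefSeq table on GRCm38.p6, read in the direction of transcription, and 6 of the 8 genes matched that table, all but Dcn and Lum. The windows are Prelp at chr1:133921352-133921651 on the minus strand, Fmod at chr1:134037004-134037303 on the plus strand, Aspn at chr13:49544193-49544492 on the plus strand, Ogn at chr13:49607765-49608064 on the plus strand and Bgn at chrX:73483351-73483650 on the plus strand. Capitals mark matches on either strand to the TATA box letters TATAAA, to the CCAAT box or to the GC box letters GGGCGG.
Prelp: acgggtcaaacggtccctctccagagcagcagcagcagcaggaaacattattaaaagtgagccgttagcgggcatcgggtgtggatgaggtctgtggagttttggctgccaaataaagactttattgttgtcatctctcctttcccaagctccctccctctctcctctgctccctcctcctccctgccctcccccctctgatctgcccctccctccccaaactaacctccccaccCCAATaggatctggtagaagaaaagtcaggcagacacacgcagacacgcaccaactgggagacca
Fmod: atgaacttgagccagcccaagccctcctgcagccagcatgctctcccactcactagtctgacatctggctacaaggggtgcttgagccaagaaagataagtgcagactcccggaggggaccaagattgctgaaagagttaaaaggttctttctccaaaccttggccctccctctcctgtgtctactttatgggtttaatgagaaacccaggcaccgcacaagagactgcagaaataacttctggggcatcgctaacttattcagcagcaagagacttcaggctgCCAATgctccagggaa
Aspn: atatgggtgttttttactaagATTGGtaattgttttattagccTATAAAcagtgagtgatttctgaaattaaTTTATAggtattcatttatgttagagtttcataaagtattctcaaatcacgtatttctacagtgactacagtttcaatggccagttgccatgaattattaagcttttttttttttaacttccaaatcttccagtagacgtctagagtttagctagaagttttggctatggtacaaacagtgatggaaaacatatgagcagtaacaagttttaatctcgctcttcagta
Ogn: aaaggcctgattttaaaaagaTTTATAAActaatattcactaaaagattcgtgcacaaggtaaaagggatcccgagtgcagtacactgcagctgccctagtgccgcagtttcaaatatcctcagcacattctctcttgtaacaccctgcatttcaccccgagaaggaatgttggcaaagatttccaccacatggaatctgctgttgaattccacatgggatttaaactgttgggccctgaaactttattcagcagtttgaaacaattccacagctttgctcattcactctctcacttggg
Bgn: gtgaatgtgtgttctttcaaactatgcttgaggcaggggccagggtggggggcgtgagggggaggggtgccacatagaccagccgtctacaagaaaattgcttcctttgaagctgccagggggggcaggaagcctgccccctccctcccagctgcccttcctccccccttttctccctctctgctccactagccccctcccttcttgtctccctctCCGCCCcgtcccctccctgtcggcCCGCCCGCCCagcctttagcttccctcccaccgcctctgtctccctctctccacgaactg
TATAAA was found at -207 and -178 from the start of Aspn and in an overlapping pair of matches at -229 and -227 from that of Ogn, and 13.62% of the 32851 promoter windows in the table hold it. CCAAT was found at -15 in Prelp, at 35 in Fmod and at -229 in Aspn, and 37.41% of all windows hold it. GGGCGG was found at -34, -10 and -6 in Bgn, where the last pair of matches shares letters, and 35.66% of all windows hold it. It was also found at -202 and -70 in a window of Podn, which is not shown. The AP-1 motif TGANTCA was found in 7.808% of all windows and in none of the members' windows searched. Aspn and Ogn thus both held TATAAA, and Prelp, Fmod and Aspn held CCAAT, in these windows. Whether neighbouring genes share these letters more often than other genes was not tested, nor was any role of the matches.

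Some libraries stood apart from the rest. The sarcoma of 1268_1270 had 70871 CPM summed over 12 adipocyte marker genes, while the other SMC3+/- sarcomas had 473 to 931 CPM and marrow had 82.5 to 313 CPM. Its 16 pan-leukocyte markers summed to 944 CPM, where the other SMC3+/- sarcomas had 8136 to 14206 CPM and marrow 9769.9 to 17872 CPM. Log2 fold changes of single genes and counts of calls below are thus also given without 1268_1270 where that changes the call or moves the value by over 1.5 times. Other measures, such as pooled ratios and distances between genes, were not recomputed without it. Transcripts longer than 6 kb were low in marrow 737, 779 and 782, by a median of -2.22, -2.28 and -2.09 on the log2 scale. The same median was -0.752 in marrow 1267, -0.577 in tumour 1 of mouse 948 and 0.328 in its tumour 2. Transcript lengths of the 8 genes used here ran from 1758 bases for Dcn to 3615 bases for Prelp. Smc3 was measured at 143 CPM in mouse 841 and at 63.6 to 217 CPM in the SMC3+/- sarcomas, so its RNA level did not set the wild-type sample apart.

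The comparison of sarcoma with marrow asks which genes differ between leukaemia growing as a solid tumour and leukaemia in its marrow. All 8 proteoglycan genes were called higher in SMC3+/- sarcoma, and in each of them all 4 sarcomas lay above all 9 marrows. Over the 14730 genes that entered the test, 4.49% passed in the higher direction and 0.0543% in the lower, while 4.56% had every sarcoma above every marrow and 0.129% every sarcoma below every marrow. Of the 8 genes, 7 passed the filter on low counts only with the help of the sarcomas and Bgn passed it on marrow alone, so for those 7 a higher level in sarcoma was a condition of being tested and the count is a description. The median log2 fold change was 8.80 for the 8 genes and 0.07 for all genes tested. Summed over the 8 genes the level was 200.4 CPM for mouse 948, 308 CPM for 1267, 4879 CPM for 1268_1270 and 293 CPM for 2721, and in marrow it ran from 0 through a median of 3.95 to 9.81 CPM. In bulk tissue, fewer cells that make these RNAs and less RNA per cell cannot be told apart.

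**Figure D1:**
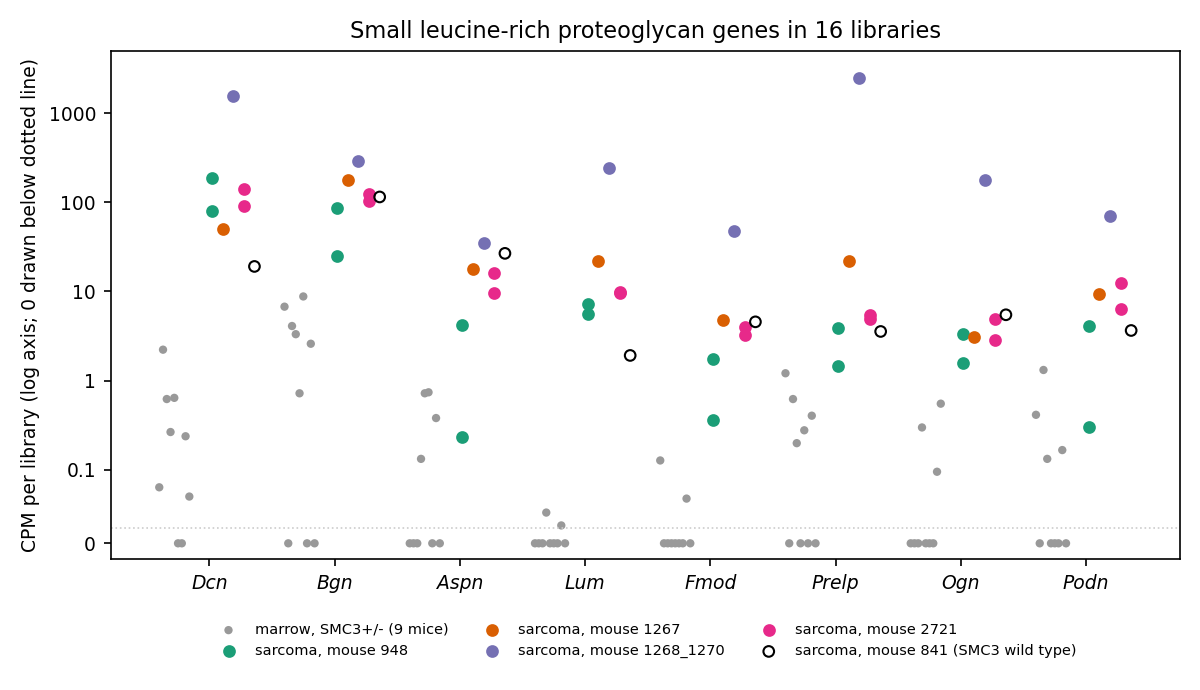
Level of each proteoglycan gene in each of 16 libraries, in CPM on a log axis with 0 drawn below the dotted line; filled large points are SMC3+/- sarcoma libraries by mouse, open circles are mouse 841 and small grey points are marrow. Prelp reached 2471 CPM in the sarcoma of 1268_1270 and lay at 22.1 CPM or lower in the other sarcomas, while Bgn spanned 49.5 to 288 CPM over the 4 mice.

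Dcn, Bgn and Aspn form class I of the family. Dcn encodes decorin, which coats collagen fibrils and binds TGF-beta and receptors such as EGFR and MET. It was measured at 135 CPM in mouse 948, 50.7 CPM in 1267, 1546 CPM in 1268_1270 and 125 CPM in 2721, and in marrow at 0 CPM at the lowest, a median of 0.238 CPM and 2.22 CPM at the highest, in mouse 1267. The sarcoma of 1268_1270 was far above the other 3, and the lowest sarcoma was still well above the highest marrow. The log2 fold change was 9.89 ± 1.28 (SE; edgeR quasi-likelihood test, Benjamini-Hochberg adjusted p = 0.000831), and it was 10.89 without marrow 1267.

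Bgn encodes biglycan, a relative of decorin that also binds the innate receptors TLR2 and TLR4. Its level was 49.5 CPM in mouse 948, 178 CPM in 1267, 288 CPM in 1268_1270 and 121 CPM in 2721. In marrow it had a minimum of 0 CPM, a median of 2.59 CPM and a maximum of 8.79 CPM, in mouse 779. Of the 8 genes Bgn had the most even levels among the SMC3+/- sarcomas, with a ratio of 5.83 between the highest and lowest. It was higher in sarcoma by 5.68 ± 1.17 on the log2 scale (SE; edgeR adjusted p = 0.0112).

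Aspn encodes asporin, which competes with decorin for collagen and carries a run of aspartate residues in place of the usual chain attachment site. It reached 2.37 CPM in mouse 948, 17.7 CPM in 1267, 34.8 CPM in 1268_1270 and 13.7 CPM in 2721. Marrow gave 0 counts in 5 of 9 mice and at most 0.740 CPM, in mouse 779, and a marrow with no count allows up to 0.0714 CPM in the deepest library and 0.278 CPM in the shallowest (3 counts; counting error only). Mouse 948 was the lowest of the sarcomas and the groups did not overlap. The log2 fold change was 6.30 ± 1.32 (SE; edgeR adjusted p = 0.0124).

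Lum, Fmod and Prelp belong to class II, whose best known chains are keratan sulphate. Lum encodes lumican, which spaces collagen fibrils in cornea and skin. It was read at 6.21 CPM in mouse 948, 21.7 CPM in 1267, 243 CPM in 1268_1270 and 10.3 CPM in 2721, and in marrow 2 counts in all were found, 1 each in mice 919 and 3332, for a highest level of 0.0332 CPM. Marrow was thus close to empty of Lum while every sarcoma held it. Pooled over libraries the ratio of sarcoma to marrow was 5489.9, with an exact 95% counting interval of 1519 to 45341. Of the 6706 sarcoma counts, 5355 came from 1268_1270. The interval covers counting error only, and the ratio was not computed without 1268_1270. The fitted log2 fold change of 12.33 ± 1.12 (SE; edgeR adjusted p = 0.000144) had the smallest p of all genes tested.

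Fmod encodes fibromodulin, which binds collagen I and is abundant in tendon. It was measured at 0.920 CPM in mouse 948, 4.78 CPM in 1267, 47.4 CPM in 1268_1270 and 3.84 CPM in 2721. Marrow held 6 counts of Fmod in all, none in 7 of 9 mice, with a highest level of 0.127 CPM in mouse 1103. No marrow reached the lowest sarcoma. Its log2 fold change was 8.93 ± 1.29 (SE; edgeR adjusted p = 0.00130), or 10.02 without marrow 1103.

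Prelp encodes a protein with a stretch rich in proline and arginine that binds heparan sulphate and is thought to tie collagen to basement membranes. Its sarcoma levels were 2.40 CPM in mouse 948, 22.1 CPM in 1267, 2471 CPM in 1268_1270 and 5.53 CPM in 2721, and its marrow levels had a minimum of 0, a median of 0.199 and a maximum of 1.21 CPM, in mouse 1103. The sarcoma of 1268_1270 held 98.8% of the CPM summed over the 4 sarcomas, and the ratio of the highest to the lowest sarcoma was 1029.7. The log2 fold change was 10.89 ± 1.76 (SE; edgeR adjusted p = 0.00250), and 11.59 without marrow 1103.

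Ogn, of class III, encodes osteoglycin, also known as mimecan, and Podn encodes podocan, of class V. Ogn was measured at 2.47 CPM in mouse 948, 3.08 CPM in 1267, 178 CPM in 1268_1270 and 4.06 CPM in 2721, and in marrow at 0 CPM in 6 of 9 mice and at most 0.552 CPM, in mouse 949. Podn was measured at 1.87 CPM in mouse 948, 9.41 CPM in 1267, 70.9 CPM in 1268_1270 and 9.79 CPM in 2721, and in marrow at 0 CPM in 5 of 9 mice and at most 1.32 CPM, in mouse 2721. For Podn the gap between the tissues was narrow, since the highest marrow lay only just below the lowest sarcoma. The log2 fold change was 8.68 ± 1.46 for Ogn (SE; edgeR adjusted p = 0.00327) and 6.49 ± 1.35 for Podn (SE; edgeR adjusted p = 0.0120). It was 9.54 for Ogn without marrow 949 and 7.75 for Podn without marrow 2721.

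The sarcoma of 1268_1270 decided 5 of these calls. Without it, 3 of the 8 genes were called higher, among 170 genes called of 15045 tested. Lum kept a log2 fold change of 9.79 (edgeR adjusted p = 0.000730), Dcn one of 7.59 (edgeR adjusted p = 0.00330) and Fmod one of 6.68 (edgeR adjusted p = 0.0261). The calls of Bgn (5.14, edgeR adjusted p = 0.0592), Aspn (5.58, 0.0911), Prelp (4.81, 0.1301), Podn (4.66, 0.228) and Ogn (4.70, 0.237) were lost, with the same direction of the log2 fold change. With any other single sample of mouse and tissue left out, all 8 stayed called. The p-values measure the spread between these mice.

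**Figure D2:**
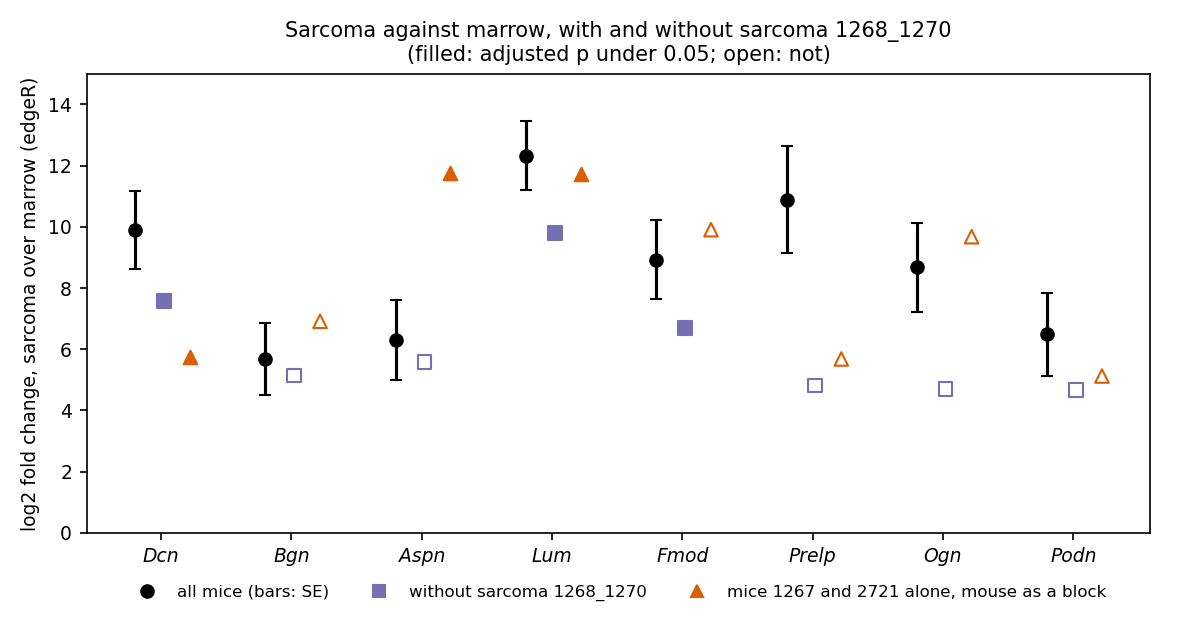
Log2 fold change of sarcoma over marrow for each proteoglycan gene, from all mice (circles with SE bars), without sarcoma 1268_1270 (squares) and within mice 1267 and 2721 with the mouse as a block (triangles); filled symbols have an edgeR adjusted p under 0.05. Without 1268_1270 the filled squares are Dcn, Lum and Fmod. Lum, Fmod, Ogn and Aspn had 0 counts in the marrow of both mice 1267 and 2721, so the height of their triangles was not measured.

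Mice 1267 and 2721 gave both tissues, so the genes could be read within an animal. In mouse 1267, Dcn was at 2.22 CPM in marrow, from 43 counts, and at 50.7 CPM in sarcoma, while the other 7 genes had 0 counts in its marrow. In mouse 2721, marrow levels against sarcoma levels were 0.622 and 125 CPM for Dcn, 4.10 and 121 CPM for Bgn, 0.622 and 5.53 CPM for Prelp and 1.32 and 9.79 CPM for Podn, and Lum, Fmod, Ogn and Aspn had 0 counts in marrow. Each gene was higher in the sarcoma in both animals. A paired fit of these 2 mice alone, with the mouse as a block, called 3 of the 8 genes: Lum (log2 fold change 11.72, edgeR adjusted p = 0.0105), Aspn (11.76, 0.0114) and Dcn (5.74, 0.0179). Over all genes, 114 of 14397 were called. Lum, Fmod, Ogn and Aspn had 0 counts in both of these marrows, so the size of their fold changes under a block was not measured. When the block covered all mice, Lum (11.46, edgeR adjusted p = 0.00892) and Ogn (9.43, 0.0345) were called, and the other 6 were not. Over all genes, 130 of 14730 were called in that fit. A mouse with 1 tissue tells nothing of the tissue difference under a block. The fit over all mice thus rests on mice 1267 and 2721 too and is not a separate check.

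The make-up of the proteoglycan RNA differed between tumours. Per kilobase of transcript, the scale on which genes can be set against one another, Dcn ranked first in mouse 948 at 76.6 CPM per kb, in 1268_1270 at 879.6 and in 2721 at 71.2, and Bgn ranked first in 1267 at 73.7 CPM per kb and in mouse 841 at 47.4. Second in order came Bgn at 20.5 CPM per kb in 948 and 49.9 in 2721, Prelp at 683 in 1268_1270, Dcn at 28.9 in 1267 and Aspn at 11.5 in 841. Dcn and Bgn together were thus at the top in the tumours of 948, 1267 and 2721, and the order changed in 1268_1270, where Prelp took second place, and in 841, where Aspn and Dcn stood close together at 11.5 and 10.9 CPM per kb. These ranks come from 1 sample per mouse, so the spread of neighbours in the order within a mouse was not measured.

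As shares of the counts of the 8 genes, Prelp took 50.6% in 1268_1270 (Wilson 95% interval 50.3 to 50.9%) and at most 7.16% in any other sarcoma library, that of mouse 1267. Dcn took 81.7% in tumour 1 of mouse 948 (80.4 to 82.9%) and 43.7% in its tumour 2 (41.7 to 45.7%), and Bgn took 11.01% and 47.0% of them. In mouse 2721 the tumours differed less, with Dcn at 50.1% and 34.3% and Bgn at 36.9% and 46.0%. Intervals cover counting error only, and the counts carry no molecular identifiers. Long transcripts were lower in tumour 1 than in tumour 2 of mouse 948, and the part of transcript length in the shares was not tested.

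**Figure D3:**
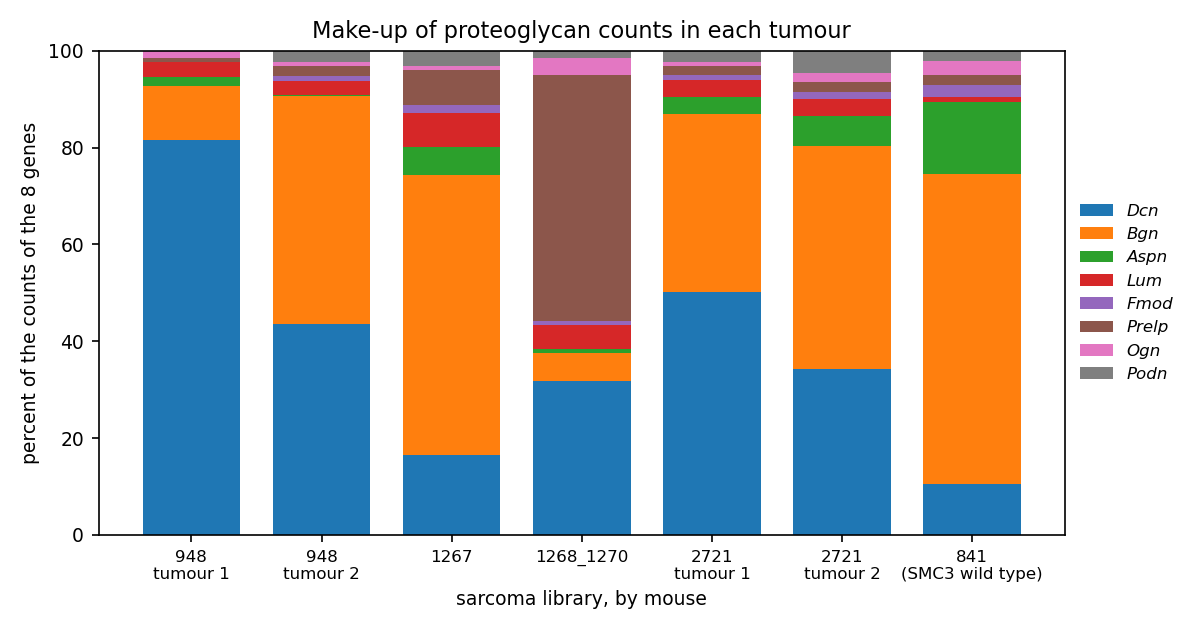
Percent of the counts of the 8 proteoglycan genes taken by each gene in each of 7 sarcoma libraries, stacked to 100 percent. Prelp takes 50.6% in 1268_1270, Dcn 81.7% in tumour 1 of mouse 948 and Bgn 63.8% in mouse 841.

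Sarcoma libraries of the same mouse, read as separate tumours, also differed in level. In mouse 948, Dcn was at 187 CPM in tumour 1 and 79.5 CPM in tumour 2, and Bgn at 25.2 and 85.6 CPM, so Dcn was higher in tumour 1 and Bgn in tumour 2. Aspn was at 4.19 CPM in tumour 1, from 69 counts, and at 0.236 CPM in tumour 2, from 3 counts, which lies within the range of the marrows. Podn went the other way, at 0.303 CPM from 5 counts in tumour 1, also within the marrow range, and 4.08 CPM from 52 counts in tumour 2. Skeletal muscle markers summed to 4093 CPM in tumour 1 and 23.0 CPM in tumour 2 of that mouse. Transcripts over 6 kb had a median of -0.577 in its tumour 1 and 0.328 in its tumour 2 on the log2 scale. The part of muscle or of transcript length in these differences was not tested. In mouse 2721 the tumours were closer, with Lum at 9.75 and 9.66 CPM, Prelp at 4.92 and 5.49 CPM, Dcn at 142 and 92.0 CPM, and a largest ratio between tumours of 1.95, for Podn.

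The tumour of mouse 841 was compared with the 4 SMC3+/- sarcomas to see whether the genes differed with the SMC3 genotype, under the assumption that this lone sample varies as they do. Its levels were 19.1 CPM for Dcn, 115 for Bgn, 26.7 for Aspn, 1.92 for Lum, 4.56 for Fmod, 3.56 for Prelp, 5.48 for Ogn and 3.65 for Podn, all above the highest marrow. Dcn and Lum lay below all 4 SMC3+/- sarcomas, and the other 6 lay within their range. None of the 8 genes was called (edgeR adjusted p = 1.00 for each), nor at an unadjusted p under 0.05. Of all 17762 genes tested, 0 were called by edgeR, which is 0%, and 236 had an unadjusted p under 0.05. DESeq2 called 65 genes, none of them among the 7 members to which it gave an adjusted p, with 3 of the 8 at an unadjusted p under 0.05, and limma-voom called 0. On simulated counts this fit recovered 0 of 96 genes changed 16-fold, so a design with 1 sample against 4 could show little.

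The log2 fold changes of wild type over SMC3+/- were -4.60 ± 2.57 for Dcn, -5.19 ± 2.81 for Lum, -7.45 ± 5.33 for Prelp, -3.09 ± 3.04 for Ogn, -2.65 ± 2.10 for Podn, -1.64 ± 2.20 for Fmod, -0.47 ± 1.00 for Bgn and 0.64 ± 1.21 for Aspn (SE). The median of all genes was -0.33. Without the sarcoma of 1268_1270 the values were -2.28 for Dcn, -2.57 for Lum, -1.33 for Prelp, 0.93 for Ogn, -0.79 for Podn, 0.68 for Fmod, 0.14 for Bgn and 1.41 for Aspn, so the sign of Ogn, Fmod and Bgn turned, and scaling to pan-leukocyte genes gave Aspn -1.69. No direction is given for these genes.

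Some markers of several other cell types were also called higher in sarcoma, and whether they varied together with the proteoglycan genes was not tested. Over all genes tested 4.49% were called higher. The filter asked for about 0.431 CPM in 4 samples. In this and the later lists, some genes passed it only with the sarcomas. Examples are Cidec, Gpc6 and Pcolce2, at most 0.0714, 0.0663 and 0.0476 CPM in marrow. Counts of calls in these lists are thus descriptions. Of 15 fibroblast markers, 9 were called higher in sarcoma and 0 lower, with a median log2 fold change of 5.67, and 5 of 15 were called without 1268_1270. The highest log2 fold changes among the markers named by adjusted p were 10.95 for Dpt (dermatopontin), 10.84 for Clec3b (tetranectin), 10.23 for Col3a1 and 9.63 for Mfap5, a microfibril protein. They moved by over 1.5 times to 7.39 for Dpt and 7.92 for Clec3b without 1268_1270, to 13.40 for Dpt without marrow 1103, to 11.99 for Clec3b without marrow 779 and to 12.55 for Mfap5 without marrow 3332. The fibroblast sum was 284 to 972 CPM in marrow and 1508 to 17446 CPM in the SMC3+/- sarcomas, and no marker of the list was at 0 in all marrows. Of the marrow sum much came from Gsn and Pi16, at means of 359 and 183 CPM, whereas Col3a1 had a marrow mean of 0.490 ± 0.718 CPM (SD, n = 9). Single genes also made much of the sarcoma sums. Gsn alone was at 13360 CPM in 1268_1270, which had the highest sum, and Thy1 at 598 CPM in mouse 948, which had the lowest.

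Adipocyte markers were called higher in 10 of 11 tested, with a median log2 fold change of 9.94, and in 4 of 11 without 1268_1270. Skeletal muscle markers were called higher in 8 of 11 tested, at sums of 10.9 to 2227 CPM in sarcoma and 12.2 to 94.97 CPM in marrow, where Mb and Pvalb were at 0 in all mice, and 5 stayed called without 1268_1270 and 4 without sarcoma 948. Of 12 endothelial markers 6 were called higher, at 124 to 739 CPM in sarcoma and 24.3 to 167 CPM in marrow, and of 11 pericyte and smooth muscle markers 6, and without 1268_1270 these were 1 and 2. Of 8 marrow stroma markers 1 was called higher (0 to 2 with 1 sample of mouse and tissue left out). It was Adipoq, which is also on the adipocyte list and was not called without 1268_1270 (edgeR adjusted p = 0.486). Of 7 Schwann cell and nerve markers 3 were called higher (1 without 1268_1270). Of 7 bone and cartilage markers 0 were called higher (up to 1 with 1 sample left out), and of 16 pan-leukocyte markers 0. The part of any of these cell types in the proteoglycan levels was not tested.

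**Figure D4:**
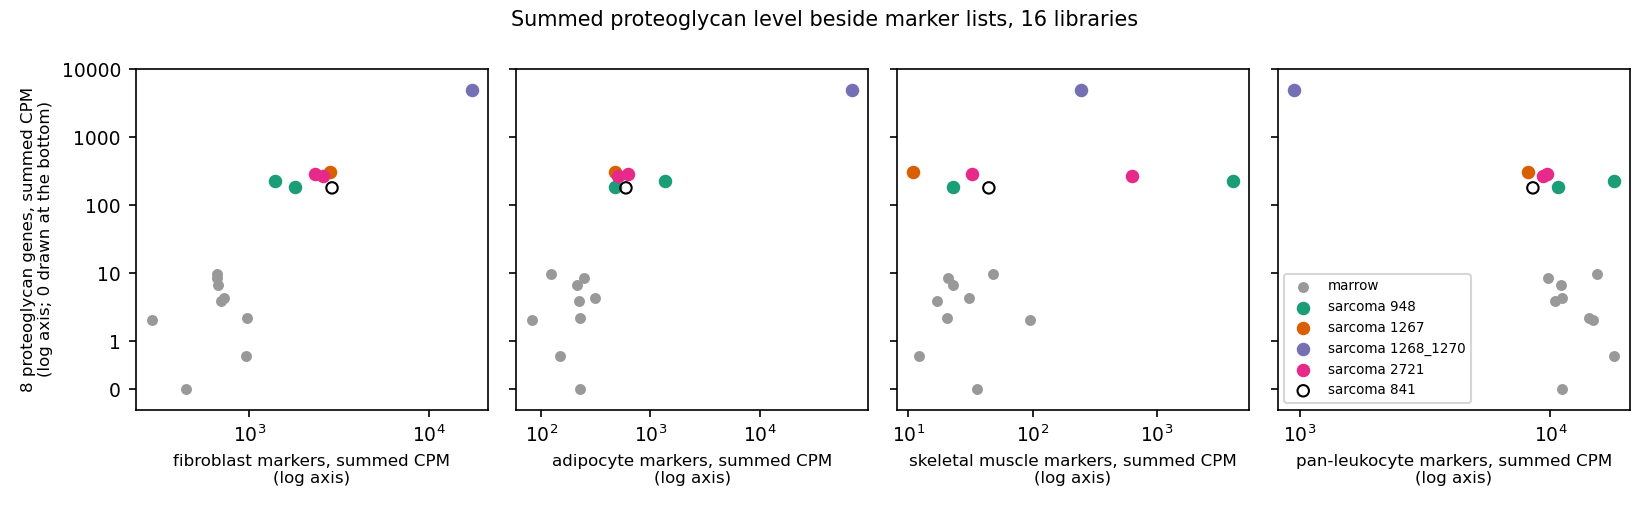
Summed CPM of the 8 proteoglycan genes (vertical, log axis with 0 drawn at the bottom) against summed CPM of fibroblast, adipocyte, skeletal muscle and pan-leukocyte markers (horizontal, log axes) in 16 libraries; colours mark the mouse of each sarcoma, open circles mouse 841 and grey points marrow. The sarcoma of 1268_1270 lies apart, at 70871 CPM of adipocyte markers, 944 CPM of leukocyte markers and 4879 CPM of proteoglycan genes. Of its 17446 CPM of fibroblast markers, Gsn alone gave 13360 CPM.

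Of 10 other leucine-rich repeat genes of the matrix listed, 6 could be tested and 1, Tsku (tsukushi, a secreted regulator of BMP and Wnt signalling), was called higher, by 5.78 ± 1.12 on the log2 scale (SE; edgeR adjusted p = 0.00761). Its level was 1.31 CPM in mouse 948, 3.20 CPM in 1267, 4.77 CPM in 1268_1270 and 2.80 CPM in 2721, against 0.0436 ± 0.0675 CPM in marrow (SD, n = 9). Without 1268_1270 the call was lost (5.41, edgeR adjusted p = 0.0517), and without marrow 3332 the change was 6.51. Of the listed genes beside members, Omd and Ecm2 could be tested and were not called. Omd, between Aspn and Ogn, had a log2 fold change of 2.13 ± 1.38 (edgeR adjusted p = 0.622), which was 1.42 without 1268_1270 and 2.77 without marrow 1103. Ecm2, beside Aspn, had one of 5.06 ± 1.47 (edgeR adjusted p = 0.0705). It fell to 2.99 without 1268_1270 (edgeR adjusted p = 0.860) and was called at 5.80 without marrow 1103 (edgeR adjusted p = 0.0455). Kera, beside Lum, Epyc, which follows Kera, and Optc, beside Prelp, had too few counts to be tested.

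Ligands and receptors of these proteoglycans were called in part. The test called 9 of 23 genes higher and 0 lower, with a median log2 fold change of 1.19, and 3 were called without 1268_1270. Among them the fibrillar collagen gene Col3a1 (10.23 ± 1.18, SE; edgeR adjusted p = 0.000427) had 182 CPM for mouse 948, 852 CPM for 1267, 1027 CPM for 1268_1270 and 567 CPM for 2721. Eln, for elastin, was higher by 9.30 ± 1.12 (edgeR adjusted p = 0.000526), and Col6a1 by 8.35 ± 1.55 and Kdr, the VEGF receptor bound by decorin, by 7.35 ± 1.40 on the log2 scale, the last pair not called without 1268_1270 (5.76 and 4.76). Eln was at 8.05 without 1268_1270 and 10.29 without marrow 3332, Col6a1 at 9.63 without marrow 2721 and Kdr at 8.75 without marrow 779. Tlr4 had a log2 fold change of 0.51 ± 0.40 and Tlr2 of -0.60 ± 0.72, and neither receptor of biglycan was called (edgeR adjusted p = 0.732 and 0.883).

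Enzymes that cleave the proteoglycans or their partners, with their inhibitors, were called higher in 10 of 13 tested and lower in 0, with a median log2 fold change of 5.46, and in 5 of 13 without 1268_1270. Mmp3 (stromelysin) stood at 13.2 CPM in mouse 948, 12.3 CPM in 1267, 21.9 CPM in 1268_1270 and 12.8 CPM in 2721, against 0.0222 ± 0.0552 CPM in marrow (SD, n = 9), a log2 fold change of 8.78 ± 1.06 (edgeR adjusted p = 0.000526). The 4 SMC3+/- sarcomas thus held it at similar levels, and mouse 841 had 2.01 CPM. Mmp2, which encodes gelatinase A, was higher by 5.46 ± 0.91 (edgeR adjusted p = 0.00302) and Pcolce2, an enhancer of procollagen processing, by 11.66 ± 1.32 (edgeR adjusted p = 0.000427). Adamts5, an aggrecanase, was higher by 9.25 ± 1.51 (edgeR adjusted p = 0.00267), with 771 CPM in 1268_1270 but only 9.83 to 15.5 CPM in the other SMC3+/- sarcomas, and lost its call without 1268_1270 (5.20, edgeR adjusted p = 0.108). Leaving out 1268_1270 gave log2 fold changes of 4.50 for Mmp2 and 7.999 for Pcolce2, both still called. Leaving out marrow 919 gave 10.44 for Mmp3 and 13.02 for Pcolce2, and leaving out marrow 1103 gave 9.99 for Adamts5.

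Among genes that build the sugar chains, the test called 1 of 24 higher and 0 lower, with a median log2 fold change of 0.30, and 0 were called without 1268_1270. That gene, Chst1, a keratan sulphate sulphotransferase, was at 225 CPM in 1268_1270 and between 1.93 and 2.24 CPM in the other SMC3+/- sarcomas, against 1.42 ± 0.940 CPM in marrow (SD, n = 9). Its log2 fold change was 5.33 ± 1.18 (edgeR adjusted p = 0.0164) and fell to 0.38 without 1268_1270. The difference between this list and the 8 core protein genes was not tested.

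Of 20 other proteoglycan core proteins tested, 6 were called higher and 0 lower, with a median log2 fold change of 3.03, and 2 without 1268_1270. Sdc3 (syndecan 3) stood at 107 CPM in mouse 948, 98.8 CPM in 1267, 60.6 CPM in 1268_1270 and 99.97 CPM in 2721, against 6.97 ± 5.17 CPM in marrow (SD, n = 9), and at 29.3 CPM in mouse 841. The sarcoma of 1268_1270 was thus the lowest of the 4 SMC3+/- sarcomas for this gene. Its log2 fold change was 3.59 ± 0.57 (edgeR adjusted p = 0.00232). Gpc6, a glypican, was higher by 8.57 ± 1.14 (edgeR adjusted p = 0.000872), and the basement membrane genes Hspg2 and Col18a1 by 8.03 ± 1.43 and 8.66 ± 1.52 on the log2 scale, both not called without 1268_1270 (4.64 and 5.42). Gpc6 was at 7.94 without 1268_1270 and 10.09 without marrow 3332, and Col18a1 at 10.44 without marrow 919. Srgn, for serglycin, was at 1344 ± 1189 CPM in marrow (SD, n = 9) and 1757 ± 1627 CPM in sarcoma (SD, n = 4) and was not called (edgeR adjusted p = 0.983). Its level in 1268_1270, 101 CPM, was the lowest of the sarcomas.

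Likeness of pattern was measured as the root mean square distance between centred log2 CPM values over the 14 samples of mouse and tissue. A prior count of 2, scaled to library size, was added to each count. Among the 8 genes the closest pair was Fmod and Podn, at 1.08 log2 units, and the farthest Dcn and Bgn, at 3.003. The adjacent genes Fmod and Prelp lay at 1.61 and Dcn and Lum at 1.52, and Aspn and Ogn, with Omd between them, at 1.86. Among all genes past the count filter, the nearest to Dcn were Medag, Lama4 and Sparcl1 at 1.38 to 1.59. The nearest to Lum were Cygb, Scn7a and Pcolce2 at 0.480 to 0.772 log2 units, and those to Bgn were Lox, Fkbp10 and Plvap at 1.29 to 1.68. Aspn lay nearest to Plvap, Smoc2 and Ddah1 and Fmod to Dysf, Prex2 and Sfrp1. Prelp lay nearest to Palmd, Efemp1 and Aoc3, Ogn to Mpdz, Itga3 and Msrb3, and Podn to Tgfb3, Ephb4 and Osmr. All these distances share the same libraries.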

How the data were processed

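Poly(A) RNA libraries with added spike-in RNA were made with an NEBNext kit, per the labels' protocols. The authors deposited 1 table of raw whole-number counts per gene symbol for 16 libraries, and 0 columns and 0 rows lacked a sample or a gene name. The submitters' processing notes list STAR, DESeq, DESeq2 and mm9 but no roles. No counter, annotation or strand setting was found in the labels, so reads shared with overlapping or antisense genes cannot be told apart.

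Libraries were added up to 14 samples of 1 mouse and tissue each, scaled by TMM, filtered with filterByExpr and tested across all genes with the two-sided quasi-likelihood test in edgeR 4.0.16 under R 4.3.3, at a Benjamini-Hochberg adjusted p under 0.05. The SE was back-calculated from the fold change and the F statistic and is approximate. Scaling factors were estimated for sums and single tumours separately. DESeq2 1.42.0, limma-voom (limma 3.58.1), other scalings and filters, mouse blocks, the first tumour only, tumour libraries as samples and leaving out samples or libraries were alternatives. Samples of mouse and tissue were left out 1 at a time, so mice 1267 and 2721, which gave both tissues, were never left out whole. The mouse pairs samples of mice 1267 and 2721 per the labels, and their deviations correlated at 0.36 and 0.32 over 9139 genes. Every pair of libraries differed by more than sampling noise (lowest chi-square per gene 16.03).

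Named genes are the 8 members, the 4 genes of lowest adjusted p in each list (fewer where fewer were tested), and the 3 nearest genes per member. Tlr2, Tlr4, Srgn, Gsn, Pi16 and Thy1 were named after their values were seen. Members and lists were chosen with earlier results of these data known. Lengths are of the longest principal transcript in GENCODE M21, on a later build than mm9 and matched by symbol only. Promoters are from RefSeq on GRCm38.p6. On simulated counts the tissue fit over 14212 genes made 95 calls, 1 of them false, and found 21 of the 95 genes set to a 4-fold change and 73 of the 99 set to 16-fold.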

Additional observations from a re-analysis of the deposited data

Results flagged for a closer look

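In groups of 4 to 10 samples, a value was set aside for a closer look by its gap to the nearest other sample. The gap had to be a large part of the group's range (Dixon's 95% limit). Chance gives this in about 1 in 20 groups if values are normally distributed and groups are independent. CPM values are bounded at 0 and the 16 groups share libraries, so the count below cannot be set against that rate. Of 16 groups of gene and tissue, 9 met this, 6 in sarcoma and 3 in marrow, and in all 6 sarcoma groups the sample was 1268_1270. There, Dcn was at 1546 CPM with the other sarcomas at 50.7 to 135 CPM, and Lum at 243 CPM with the others at 6.21 to 21.7 CPM. Fmod was at 47.4 CPM, with the others at 0.920 to 4.78 CPM. Prelp was at 2471 CPM, with the others at 2.40 to 22.1 CPM, Ogn at 178 CPM, with the others at 2.47 to 4.06 CPM, and Podn at 70.9 CPM, with the others at 1.87 to 9.79 CPM. Bgn and Aspn did not meet the limit in sarcoma. In marrow, Dcn stood out at 2.22 CPM in mouse 1267, with the other marrows at or under 0.641 CPM. Fmod stood out at 0.127 CPM in mouse 1103, from 4 counts, with the others at or under 0.0476 CPM, and Podn at 1.32 CPM in mouse 2721, with the others at or under 0.414 CPM.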

How the results depend on the processing

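None of the 8 proteoglycan genes changed direction between sarcoma and marrow under any alternative run. The 8 calls became 5 with DESeq2, which gave the other 3 no adjusted p, 2 with a mouse block in the full fit and 3 with the block in the 2 mice with both tissues. They became 2, Dcn and Lum, without marrows 737, 779 and 782, tumour 1 of mouse 948 and sarcoma 1268_1270. With each sample of mouse and tissue left out in turn they ranged from 3 to 8, the 3 coming without sarcoma 1268_1270. Limma-voom called 7 and lost Prelp (adjusted p = 0.0990). Under RLE scaling, plain totals, pan-leukocyte scaling, no filter and no robust estimation 8 were called, and 7 of 7 tested under a filter of at least 1 CPM in 4 samples, with the first tumour only, with tumour libraries as samples and without those 4 libraries. The 670 calls among all genes became 8317 under pan-leukocyte scaling, which moved the median of all genes to 2.06, and 1368 without a count filter. They became 130 and 114 under the 2 blocks (107 and 81 of them higher), 303 without the 4 libraries and 62 without sarcoma 1268_1270 too. With each sample of mouse and tissue left out in turn they ranged from 170 to 765. For mouse 841 against SMC3+/- sarcoma, the 0 calls became 65 with DESeq2 (57 lower) and ranged from 0 to 1 with each mouse left out. Fmod, Lum and Ogn rest on 6, 2 and 24 marrow counts in all, so the size of their fold changes is imprecise. The cause of these changes was not tested.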

Other observations

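Marrow samples differed among themselves in these genes. Mouse 782 had 0 counts of all 8, and the summed level of 9.81 CPM in mouse 779 was the highest. Against the counts of the fibrillar collagen genes Col1a1, Col1a2 and Col3a1, a measure chosen after the values were seen, the 8 genes had 243 counts per 100 in tumour 1 of mouse 948 and 208 in 1268_1270. The other sarcoma libraries had 25.9 in tumour 2 of mouse 948, 15.04 in 1267, 30.1 and 21.2 in the tumours of 2721 and 13.6 in 841. In tumour 1 of mouse 948 the collagen level was 94.4 CPM, the lowest of the sarcoma libraries, and in 1268_1270 it was 2346 CPM, the highest. Transcripts over 6 kb were also low in tumour 1 of mouse 948, with a median of -0.577 on the log2 scale. The part of transcript length in these ratios was not tested.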
